A study of Mus musculus with 12 samples.

Results

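The creatine kinase system of the mouse heart was described from 7 genes, chosen by name among the 54751 features of the deposited count table. They are the kinase isoforms Ckm, Ckb, Ckmt1 and Ckmt2, the creatine synthesis enzymes Gatm and Gamt, and the creatine transporter Slc6a8. The samples were whole hearts of C57BL/6N mice aged 52 weeks, profiled by sequencing of total RNA after depletion of cytoplasmic ribosomal RNA. The knockout group of 3 libraries carried loxP sites on both Rexo2 alleles plus 1 copy of an allele named Ckmm, and the control group of 3 libraries carried the loxP sites alone. Ckmm is an older name of Ckm, and transgenes with its promoter often serve to express Cre recombinase in striated muscle. The labels do not say where or how that allele was made, whether Cre without loxP sites was examined, or whether each library came from its own animal. The p-values therefore rest on the variation among these libraries, part of which may be technical. Loss of Rexo2 and presence of the Ckmm allele differ together and cannot be told apart. Rexo2 encodes a exonuclease for very short RNA. The series also names 6 libraries of RNA ends from heart mitochondria, which are not analysed here.

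Creatine kinase moves the high-energy phosphate of ATP onto creatine and back, which buffers ATP in tissues whose demand changes within a beat. In cardiomyocytes a mitochondrial isoform in the space between the inner and outer membranes makes phosphocreatine beside the ADP/ATP carrier, and a cytosolic isoform at the myofibrils and membrane pumps turns it back into ATP. Heart muscle makes little creatine itself. Gatm joins arginine and glycine to guanidinoacetate, mainly in kidney, Gamt methylates it to creatine, mainly in liver, and Slc6a8 carries creatine from blood into the cell.

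The bases upstream of an annotated start site are shown for the 3 kinase genes measured at more than 100 normalised counts. The Ckmm allele bears an older name of 1 of them, and how it was made is not given. Normalised counts are reads per gene divided by 1 size factor per library. Each stretch is 250 bases, 5′ to 3′ on the strand of the gene, from RefSeq on GRCm38.p6. Capitals mark E boxes (CANNTG), the TATA motifs TATAAA and TATATA, and a match to the MEF2 consensus, each searched on both strands.
Ckm: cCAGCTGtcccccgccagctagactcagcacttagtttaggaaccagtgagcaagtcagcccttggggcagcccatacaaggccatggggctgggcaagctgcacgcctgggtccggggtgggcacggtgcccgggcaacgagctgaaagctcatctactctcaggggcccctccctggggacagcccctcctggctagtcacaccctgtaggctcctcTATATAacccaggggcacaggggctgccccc
Ckb: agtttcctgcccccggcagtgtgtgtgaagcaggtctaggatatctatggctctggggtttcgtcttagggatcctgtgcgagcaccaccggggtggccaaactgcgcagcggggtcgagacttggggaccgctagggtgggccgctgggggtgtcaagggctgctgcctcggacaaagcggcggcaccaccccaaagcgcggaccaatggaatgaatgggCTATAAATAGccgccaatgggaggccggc
Ckmt2: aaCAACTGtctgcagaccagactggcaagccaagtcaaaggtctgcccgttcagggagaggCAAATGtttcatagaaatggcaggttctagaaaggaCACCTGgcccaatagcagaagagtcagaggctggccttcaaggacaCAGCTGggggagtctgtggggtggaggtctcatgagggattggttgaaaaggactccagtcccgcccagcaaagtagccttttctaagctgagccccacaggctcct
The Ckm stretch (chr7:19410844-19411093, plus strand) held TATATA from 26 to 31 bases before the start and 1 E box at its far end, CAGCTG. The Ckb stretch (chr12:111672339-111672588, minus strand) held CTATAAATAG, in which TATAAA and the MEF2 consensus overlap. The Ckmt2 stretch (chr13:91876886-91877135, minus strand) held 4 E boxes and no match to either TATA motif. Its bases nearest the start site used lie inside the annotated extent of Ckmt2, which reaches 91876923. Of 32851 annotated promoter stretches of the same length, 66.2% held an E box, 12.4% TATAAA, 5.25% TATATA and 2.92% the MEF2 consensus, while 1.47% held a CArG box, which none of these 3 did. Enhancers that lie farther away were not searched, and a match describes letters only.

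Depth was 41979163 to 49722049 reads in knockout libraries and 43561069 to 50764023 in control libraries. The share of reads on mitochondrial DNA was 71.5% to 71.9% in knockout and 69.4% to 70.0% in control libraries, which left 11966300 to 15556993 reads per library on nuclear features. Control 490 stood apart, at -30.1 on the leading principal component (26.4% of the variance), where the other 5 libraries lay between -5.63 and 16.7. Rexo2 held 274, 288 and 314 normalised counts in knockout 492, 499 and 501, and 330, 368 and 293 in control 490, 498 and 502. The groups overlapped, and since the deleted part of Rexo2 is not given in the labels used here, its count does not check them. The 7 cardiomyocyte markers summed to 433572 to 464861 counts in knockout and 435422 to 479399 in control libraries, so the labelled tissue was seen in its markers. The 10 skeletal muscle markers, which bear on Ckm because skeletal muscle is rich in it, summed to 18.1 to 32.2 counts in knockout and 15.0 to 26.5 in control libraries, with Myh4 at 0 throughout. Limma called 0 members of the endothelial, fibroblast, smooth muscle, macrophage, neuron and Schwann cell, and blood marker lists. No adipocyte marker passed the filter. Only 0.0219% of all tested features were called, so a count of 0 in short lists tells little about cell make-up. Knockout and control did not overlap for Adgre1 (macrophage) and S100b (neuron and Schwann cell), with log2 fold changes of 0.35 and 0.21. Pdgfra (fibroblast) and Tubb3 (neuron and Schwann cell) did not overlap either and were lower in knockout, at -0.082 and -1.01. Tubb3 held 19, 18 and 5 reads in knockout 492, 499 and 501, and 29, 27 and 28 in control 490, 498 and 502. Single markers did not speak for their lists. Median log2 fold changes were 0.046 for macrophage (4 of 5 tested above 0), 0.0035 for fibroblast (3 of 5) and 0.026 for neuron and Schwann cell markers (2 of 4). Of all tested features, 9.51% did not overlap. In whole hearts, fewer cells of a type and less RNA per cell cannot be told apart.

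None of the 6 tested members was called between knockout and control hearts. Their log2 fold changes, knockout minus control, lay between 0.021 for Slc6a8 and 0.23 for Gatm, with a median of 0.044 against 0.00056 over all 18250 features tested. Limma called 0 of the 6 at an adjusted p under 0.05, where it called 0.0219% of all tested features. On the recovered reads edgeR called 0 of the 6 (0.0274% of all features). DESeq2 called 0 of the 4 to which it gave an adjusted p (0.363% of the 7986 features that had one). The authors' deposited table also held 0 called members of 4 with an adjusted p, against 0.437% of the 7550 features that had one. At an unadjusted p under 0.05 each of these 3 tools had 1 member, Ckmt2, where limma had 3.7% of all features and 1.72% on the higher side. All 6 tested members lay above 0, as did 50.2% of all features. Equal library totals changed that count, as did leaving out knockout 499, knockout 501, control 490 or control 502. The values by library show that the groups also overlapped in 5 of the 6, Ckmt2 being the exception, where 9.51% of all tested features did not overlap and 4.61% did so with knockout higher.

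**Figure D1:**
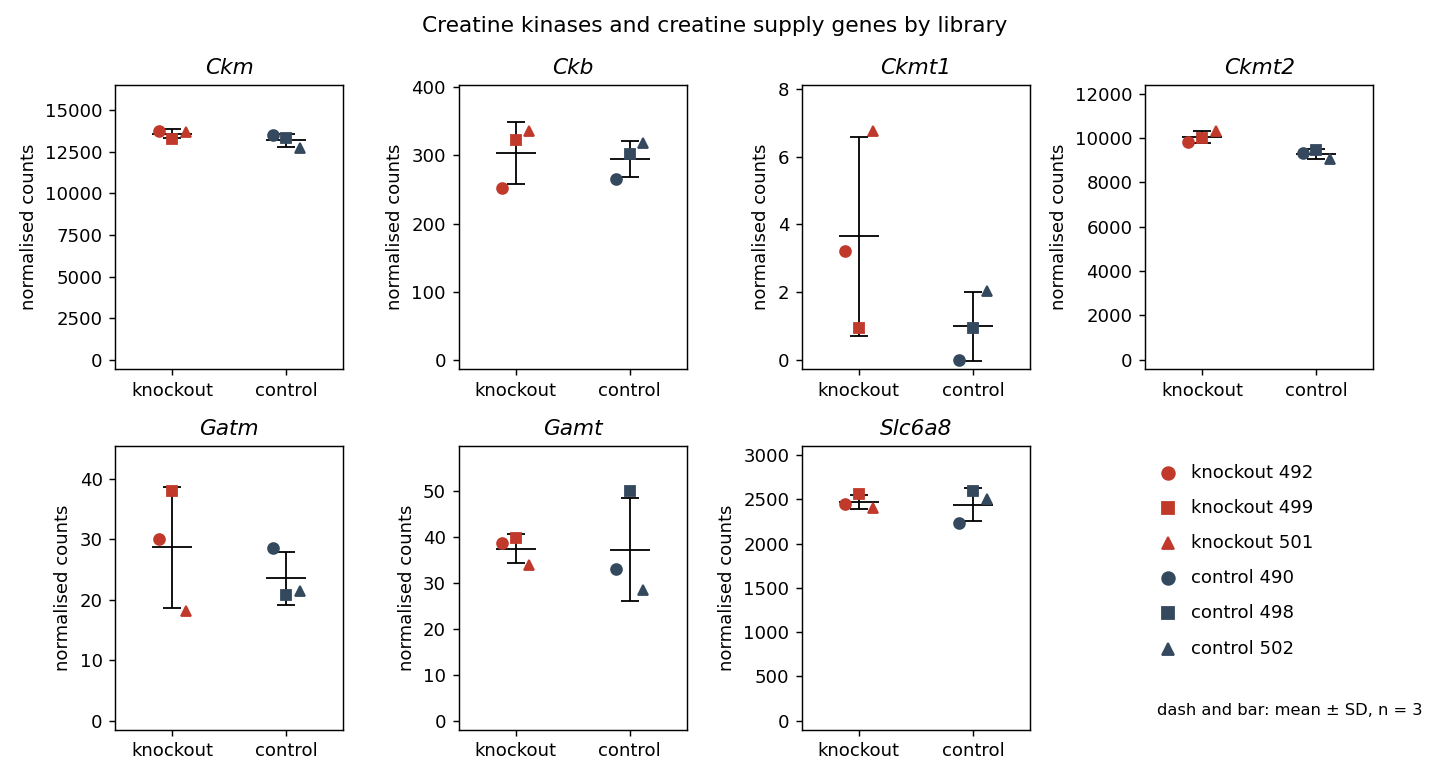
Normalised counts of the 7 genes in each library, knockout on the left and control on the right of each panel, with points for libraries and a dash and bar for the mean ± SD of 3 libraries. Only Ckmt2 has all 3 knockout libraries, from 9811 to 10328 counts, above all 3 control libraries, from 9053 to 9478.

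Ckm, the cytosolic muscle isoform, was measured on both sides of the Ckmm allele at nearly the same level. Ckm (ENSMUSG00000030399.2, chromosome 7, 19411094 to 19421583 on GRCm38) held 13767, 13264 and 13712 normalised counts in knockout 492, 499 and 501, and 13509, 13330 and 12754 in control 490, 498 and 502. Control 502 was the lowest library and the other 5 lay close together across the groups. The means were 13581 ± 276 in knockout and 13198 ± 395 in control hearts (SD, n = 3 each). The log2 fold change, 0.042, had an SE of 0.043 and a 95% interval from -0.052 to 0.13 (limma adjusted p = 1.00). As a change relative to the control level the interval runs from -3.51% to 9.78%. In this fit and scaling a larger loss of Ckm RNA lies outside it. The size of the log2 fold change rested in part on single libraries, at 0.017 without control 502 and 0.059 without control 490. Equal library totals turned it to -0.029, and no interval is given for that scaling. The spread of Ckm was small, with an SD within groups of 0.037 on the log2 scale. That was lower than in all but 17.3% of the 150 features within 1 log2 unit of its mean level.

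The genes around Ckm were examined because the genotypes differ by design in an allele named after it. Of 14 genes annotated within 100 kb of Ckm, 13 had a row in the count table and 9 passed the filter on low values. Limma called 0 of the 9, against 0.0219% of all tested features, and edgeR also called 0, against 0.0274%. At an unadjusted limma p under 0.05 there were 0 of the 9, against 3.7% of all. Mark4, a kinase of microtubule-associated proteins, has its nearest annotated end 3519 bases past Ckm. It held 294, 327 and 308 normalised counts in knockout libraries and 308, 322 and 324 in control libraries, a log2 fold change of -0.039. The noncoding RNA A930016O22Rik, which overlaps Ckm, was low, at 10.7, 18.0 and 10.2 counts in knockout libraries and 4.47, 12.2 and 10.2 in control libraries, and had a log2 fold change of 0.54 with a wide interval from -0.41 to 1.49. No source used here says if counting was stranded, so reads of this RNA and of Ckm may not be separated. On the side before Ckm, log2 fold changes were 0.0023 for Ercc1, -0.077 for Cd3eap, 0.087 for Ppp1r13l and -0.069 for Ercc2. Farther after Ckm they were 0.49 for Exoc3l2, -0.051 for Bloc1s3 and 0.21 for Trappc6a. The groups overlapped in all 9, where 9.51% of all tested features did not overlap. With shares this low, counts of 0 among 9 genes tell little about the region.

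**Figure D2:**
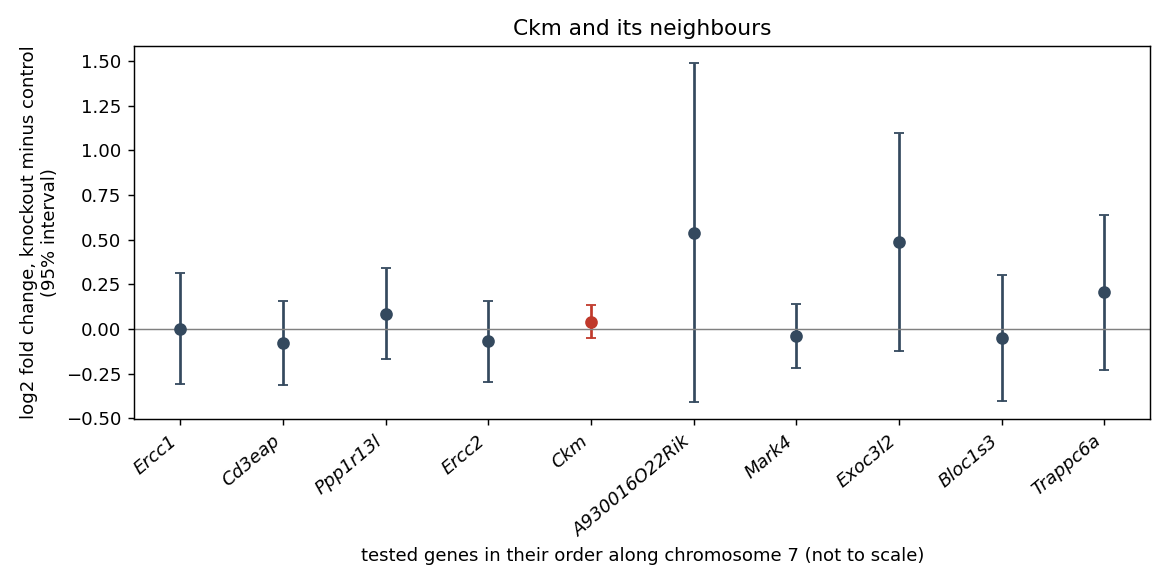
Log2 fold change, knockout minus control, with its 95% interval from limma for Ckm and the 9 tested neighbours within 100 kb, in their order along chromosome 7 and not to scale. Every interval includes 0, and that of Ckm, from -0.052 to 0.13, is the narrowest.

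Ckb, the cytosolic isoform of brain and smooth muscle that the fetal heart also uses, did not differ between the groups beyond its spread. Ckb (ENSMUSG00000001270.9, chromosome 12, 111669355 to 111672338) held 252, 323 and 336 normalised counts in knockout 492, 499 and 501, and 265, 302 and 317 in control 490, 498 and 502. Knockout 492 and control 490 were the low libraries and the groups overlapped. The log2 fold change, 0.036, had an SE of 0.12 and a 95% interval from -0.21 to 0.28 (limma adjusted p = 1.00). The coefficient of variation was 14.8% in knockout and 9.06% in control libraries, where counting error alone gives 5.77%. The SD within groups was larger than in 87.1% of the 5977 features of similar level. The smooth muscle and pericyte markers, cells that express Ckb, summed to 14825 to 15405 counts in knockout and 14780 to 15058 in control libraries. Most of that was Rgs5, with a mean of 13745, and all 4 markers had a log2 fold change above 0 (median 0.11). The neuron and Schwann cell markers summed to 165 to 216 in knockout and 189 to 223 in control libraries. The part of these cells in the level of Ckb was not tested. The pseudogenes Ckb-ps1 and Ckb-ps2 held at most 1.88 and 0 counts in any library.

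The mitochondrial isoform of striated muscle, Ckmt2, was slightly higher in knockout than in control hearts without passing the test. Ckmt2 (ENSMUSG00000021622.3, chromosome 13, 91853386 to 91876923) held 9811, 9978 and 10328 normalised counts in knockout 492, 499 and 501, and 9310, 9478 and 9053 in control 490, 498 and 502. Every knockout library was above every control library. The means were 10039 ± 264 in knockout and 9281 ± 214 in control hearts (SD, n = 3 each). The log2 fold change, 0.11, had an SE of 0.043 and a 95% interval from 0.020 to 0.21, or 8.17% above the control level, at an unadjusted limma p of 0.0210 and an adjusted p of 1.00. In the authors' deposited table the log2 fold change was 0.11 with an adjusted p of 1.00. Like Ckm, Ckmt2 varied little, its SD within groups being larger than in only 14.3% of the 231 features of similar level. Scaling the libraries to equal totals, which counts the larger mitochondrial DNA share of the knockout libraries in the total, moved the log2 fold change to 0.043, while leaving mitochondrial DNA out of the totals gave 0.14. The unadjusted limma p was 0.318 and 0.00581 in these 2 scalings, and 0.132 without a trended prior. Without 1 library it ran from 0.0162 (knockout 492 left out) to 0.0806 (knockout 501 left out).

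Ckmt1, the ubiquitous mitochondrial isoform, was at the limit of detection. Ckmt1 (ENSMUSG00000000308.14, chromosome 2, 121357773 to 121363737) had 3, 1 and 6 reads in knockout 492, 499 and 501, and 0, 1 and 2 reads in control 490, 498 and 502. These reads put it below the filter, so it was not tested, and 5 of the 6 libraries lie at or under 3 reads, the number that a count of 0 still allows. Strc, which overlaps Ckmt1 in the annotation, held at most 2.26 normalised counts.

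The balance of isoforms within a library does not depend on how libraries were scaled. For each Ckm read there were 0.713, 0.752 and 0.753 Ckmt2 reads in knockout 492, 499 and 501, and 0.689, 0.711 and 0.710 in control 490, 498 and 502. Transcript lengths were not given, so such a ratio compares libraries and not the levels of the 2 genes. The ratio was higher in every knockout library, though knockout 492 exceeded control 498 by little. The log2 ratio of Ckmt2 to Ckm averaged -0.44 ± 0.046 in knockout and -0.51 ± 0.025 in control libraries (SD, n = 3 each), a difference of 0.072. The exact permutation test, 2-sided, gave p = 0.1, the smallest that 3 against 3 allow, and 0.3 when adjusted over the 6 measures of isoform balance. Ckmt2 made up 41.2%, 42.3% and 42.4% of the counts on the 4 kinase genes in knockout 492, 499 and 501, and 40.3%, 41.0% and 40.9% in control 490, 498 and 502. The difference was 1.2 percentage points (exact permutation p = 0.1). The share of Ckm was 56.8 ± 0.87% in knockout and 57.9 ± 0.50% in control libraries (SD, n = 3 each), with overlap and an exact permutation p of 0.3. The log2 ratio of Ckb to Ckm, which compares the isoform of the fetal heart with that of the adult, averaged -5.49 in both groups, with SDs of 0.24 in knockout and 0.17 in control libraries (exact permutation p = 1.00).

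**Figure D3:**
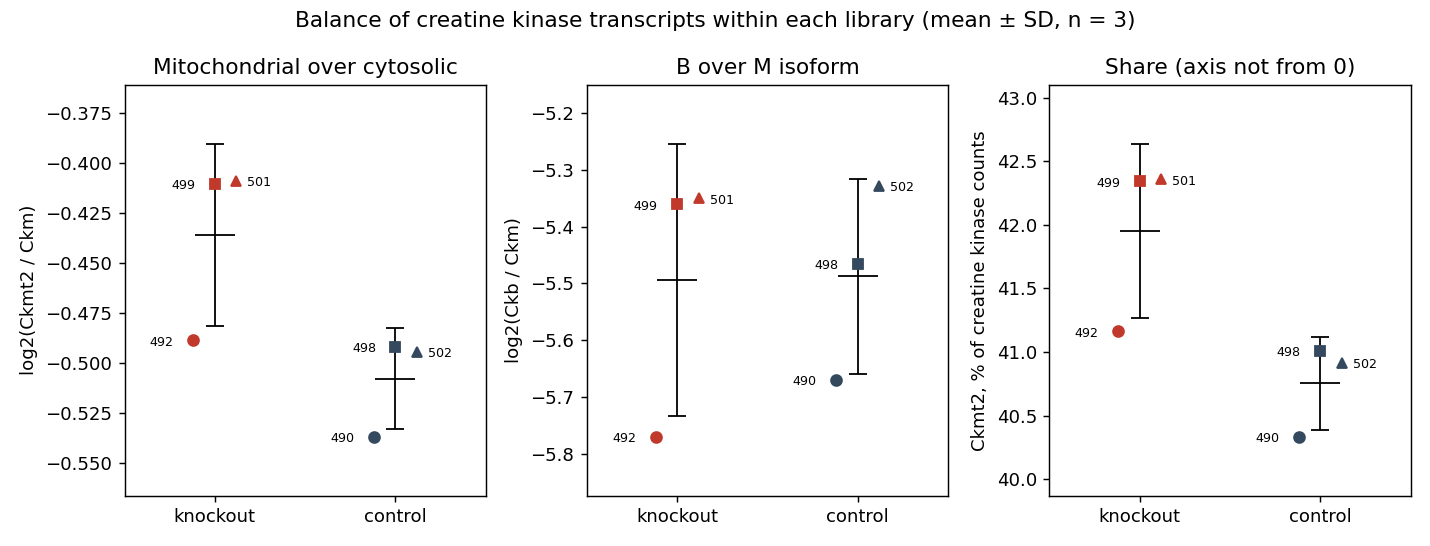
Per-library log2 ratio of Ckmt2 to Ckm counts, log2 ratio of Ckb to Ckm counts, and the share of Ckmt2 among creatine kinase counts in percent, with knockout libraries on the left, control libraries on the right, numbers naming the library, and bars for the mean ± SD of 3. The axes do not start at 0, and the groups are separate for Ckmt2 over Ckm and for the Ckmt2 share, by less than the range within either group.

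Of the supply genes, the transporter was well measured and the synthesis enzymes were near the bottom of the tested range. Slc6a8 (ENSMUSG00000019558.14, chromosome X, 73673133 to 73682502) held 2449, 2562 and 2409 normalised counts in knockout 492, 499 and 501, and 2231, 2590 and 2506 in control 490, 498 and 502. Control 490 was the lowest library and control 498 the highest, so the control range enclosed all knockout values. The log2 fold change, 0.021, had an SE of 0.060 and a 95% interval from -0.11 to 0.15 (limma adjusted p = 1.00), and it was -0.043 without control 490.

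Gatm (ENSMUSG00000027199.14, chromosome 2, 122594473 to 122611277) held 30.1, 37.9 and 18.1 normalised counts in knockout 492, 499 and 501, and 28.6, 20.7 and 21.4 in control 490, 498 and 502. The knockout libraries thus included both the highest and the lowest value. Its log2 fold change of 0.23 had an SE of 0.30 and a 95% interval from -0.42 to 0.88 (limma adjusted p = 1.00), and leaving out 1 library gave 0.0012 to 0.52. Gamt (ENSMUSG00000020150.13, chromosome 10, 80258151 to 80261025) held 38.6, 39.8 and 33.8 normalised counts in knockout 492, 499 and 501, and 33.1, 49.8 and 28.5 in control 490, 498 and 502. The control libraries enclosed the knockout ones. The log2 fold change, 0.047, had an SE of 0.24 and a 95% interval from -0.48 to 0.57 (limma adjusted p = 1.00). Counting error alone gives a coefficient of variation of 19.4% for Gatm and 16.3% for Gamt. Among libraries it was 34.8% in knockout and 18.6% in control for Gatm, and 8.41% in knockout and 30.3% in control for Gamt. With this depth and this spread only large changes of either were detectable.

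The 7 lists of genes that work beside creatine kinase hold 59 genes in all of which 52 passed the filter, and were read from the same fit. Limma called 0 of the 52, against 0.0219% of all tested features. edgeR and DESeq2 also called 0, against 0.0274% of all tested features and 0.363% of those with an adjusted p. With shares this low, counts of 0 in these lists tell little about the pathways. An unadjusted limma p under 0.05 was found for 4, of which 3 were lower in knockout hearts. That is 7.69% of the 52, against 3.7% of all tested features, and the groups did not overlap in the same share, 7.69%, against 9.51% of all. The median log2 fold change of the 52 was -0.017. The medians of single lists depended on single libraries. Without 1 library they ran from -0.065 to -0.020 for adenylate kinases (nearest 0 without knockout 499), from -0.026 to 0.036 for the ATP and phosphate carriers (lowest without knockout 492, highest without control 490), and from -0.082 to -0.0081 for AMP deamination and the AMP-activated kinase (nearest 0 without control 502). They ran from -0.027 to 0.023 for creatine precursors and methyl donors (highest without knockout 492), from -0.041 to 0.026 for other creatine routes (lowest without knockout 492), from -0.064 to 0.035 for the myomesins (highest without knockout 492) and from -0.051 to 0.0062 for regulators of Ckm (lowest without knockout 492, highest without control 502). Only for adenylate kinases and for AMP deamination and the AMP-activated kinase did the median keep its sign in all 6 of these fits.

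Adenylate kinases, which pass phosphate between adenine nucleotides, had 0 of 5 tested members called and a median log2 fold change of -0.052. Ak4, a mitochondrial matrix form, was at -0.10 and Ak1, the cytosolic form of muscle, at -0.047. The channels and carriers that move ATP, ADP and phosphate across the mitochondrial membranes had 0 of 6 called and a median of 0.0083. Vdac1, a channel of the outer membrane, held 6356, 5979 and 5822 normalised counts in knockout 492, 499 and 501, and 6814, 6634 and 6733 in control 490, 498 and 502. All knockout values were below all control values, with a log2 fold change of -0.15, a 95% interval from -0.25 to -0.053, an unadjusted limma p of 0.00553 and an adjusted p of 1.00. Slc25a4, the ADP/ATP carrier of heart and muscle, was at 0.022. The genes of AMP deamination and of the AMP-activated kinase had 0 of 10 called and a median of -0.053, with the catalytic subunit Prkaa1 at 0.12 and the regulatory subunit Prkag3 at -0.27.

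Genes that supply arginine, glycine and methyl groups for creatine had 0 of 14 called and a median log2 fold change of -0.0082. Oat, the aminotransferase that uses the ornithine which the Gatm reaction releases, held 1424, 1440 and 1483 normalised counts in knockout 492, 499 and 501, and 1673, 1700 and 1656 in control 490, 498 and 502. The groups did not overlap and the libraries of each lay close together. It had a log2 fold change of -0.21 (SE 0.052), an unadjusted limma p of 0.00124 and an adjusted p of 0.444, which under equal library totals was 0.0477. Over the other alternatives that adjusted p lay between 0.274 and 1.00. Equal library totals moved the log2 fold change of Oat to -0.28 and the median of all features to -0.069. With that scaling 37 of all features were called, against 4 in the main fit. Slc7a1, a carrier of arginine and other cationic amino acids, held 838, 823 and 659 counts in knockout 492, 499 and 501, and 839, 922 and 995 in control 490, 498 and 502. Knockout 492 and control 490 differed by less than 1 count, and the log2 fold change of -0.25 became -0.14 without knockout 501. Other routes of creatine and related solutes had 0 of 4 called and a median of 0.0013, with the creatine exporter Slc16a12 at -0.19 and the taurine transporter Slc6a6 at 0.052.

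The myomesins, M-band proteins beside which the muscle isoform binds, had 0 of 3 called and a median log2 fold change of -0.017, with Myom3 at -0.10 and Myom1 at 0.014. Transcription factors known to act on the Ckm gene had 0 of 10 called and a median of -0.018. Six4, a homeobox factor of muscle, was at 0.16 with overlapping groups.

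**Figure D4:**
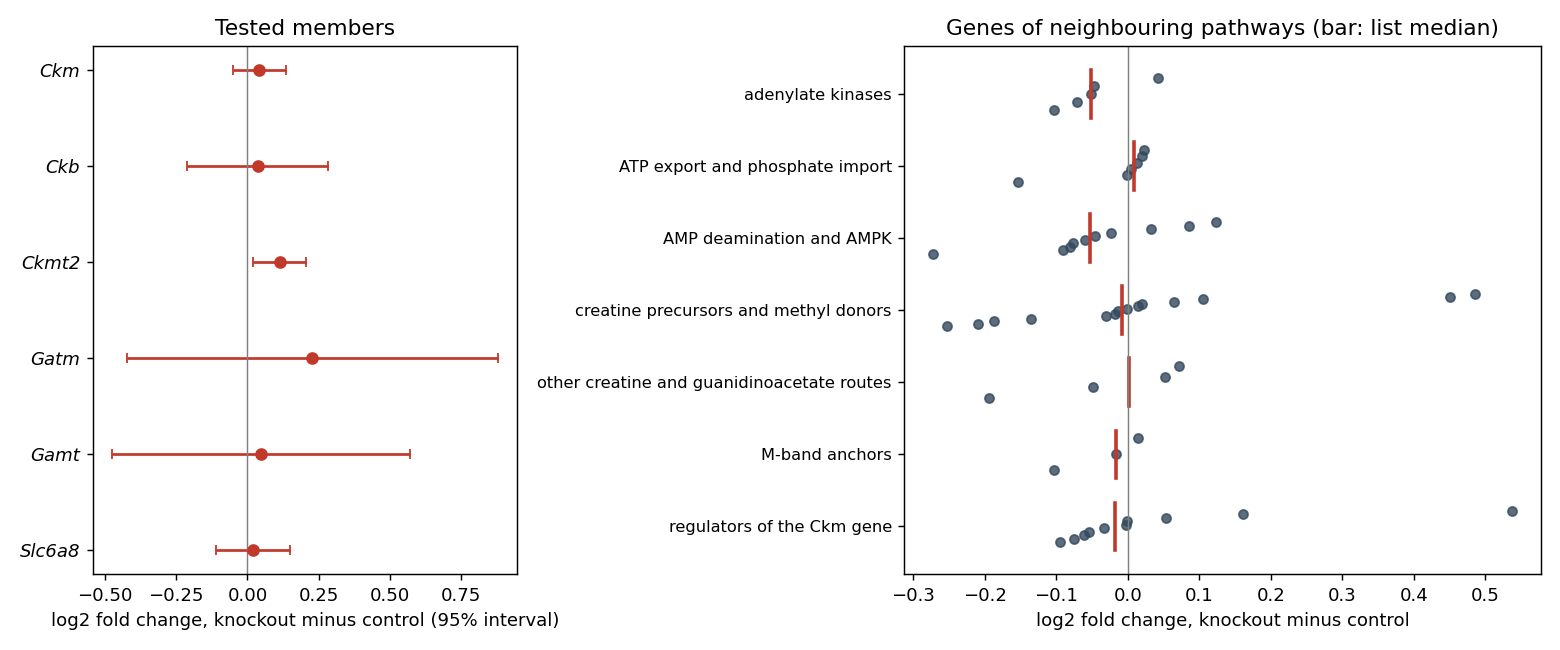
Log2 fold changes, knockout minus control, of the 6 tested members with 95% intervals from limma on the left, and of the 52 tested genes of 7 related lists on the right, where each point is a gene and the red bar the list median. The member intervals are narrowest for Ckm and Ckmt2 and widest for Gatm, and list medians lie between -0.053 and 0.0083.

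The genes whose levels followed Ckm and Ckmt2 most closely over the 6 libraries were picked from 9347 other named features with a mean of at least 100 counts. For Ckm they were Rtn3, Ninj1, Chchd3, Resf1 and Ddx10, with Pearson correlations of log2 values from 0.996 down to 0.976. Rtn3 encodes a reticulon of the endoplasmic reticulum and Chchd3 a subunit of the complex that shapes mitochondrial cristae. For Ckmt2 they were Akap1, Eml3, Baz2b, Slc12a2 and Atpaf1, from 0.988 down to 0.972. Akap1 anchors protein kinase A at the outer mitochondrial membrane, and Atpaf1 assists assembly of ATP synthase. A correlation above 0.9 was reached by 85 of the 9347 features with Ckm and by 79 with Ckmt2, and the 6 points share the genotype difference and the scaling of each library, so these are descriptions of likeness only.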

How the data were processed

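Total RNA of 6 heart libraries was analysed, 3 per genotype. The signal per gene was deposited by the authors as normalised counts, that is, reads divided by 1 size factor per library. Per the submitters' processing notes the tools included DESeq2 1.22.2 in R 3.5.2, Bowtie2 2.3.4.1, featureCounts and bedtools, on mm10 or GRCm38. The authors also deposited a DESeq2 table with log2 fold changes, a test score and p-values, used only as given and checked to run knockout over control.

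Whole reads were recovered from the steps between low values, for 100% of 156689 nonzero values within 0.01. Libraries of a group differed beyond counting noise (chi-square per degree of freedom 3.53 to 15.2). Of 54715 Ensembl features, 54686 matched a symbol and each member matched 1 row. Positions and promoters are from RefSeq GRCm38.p6, 1-based, with promoters for 6 of 7 members. Exon lengths were not at hand, so kinase shares were taken over counts and not per base as planned.

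Features whose mean reached 10 (18250) were tested by limma 3.58.1 with a trended prior on log2(value + 1), 2-sided, with Benjamini-Hochberg adjustment at 0.05, in R 4.3.3. The log2(value + 1) scale understates changes of low genes. Code was tested on simulated data. Alternatives, with edgeR 4.0.16 and DESeq2 1.42.0 on the recovered reads, are given at the end. Named list genes are the called ones or, with none called, the 2 of smallest p, of which 1 is not reported here. Members and lists were chosen with earlier results of these data known.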

Additional observations from a re-analysis of the deposited data

How the results depend on the processing

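The count of 0 called members held in all 18 alternatives, which covered the pseudocount, filter, scaling, tool, the authors' deposited table and leaving out each library, and the count of 0 called Ckm neighbours held under edgeR and in all 6 fits without 1 library. Ckmt2 kept its direction in all 18, from 0.043 to 0.14 on the log2 scale, with unadjusted p-values from 0.00581 to 0.318, and Gatm in all 17 it entered. Scaling to equal totals, which moved the median of all features to -0.069, turned Ckm to -0.029, Ckb to -0.034, Gamt to -0.021 and Slc6a8 to -0.050, and called 1 gene of the related lists, Oat. Without 1 library the log2 fold change ran from 0.017 to 0.059 for Ckm, from -0.043 to 0.16 for Ckb, from -0.12 to 0.27 for Gamt and from -0.043 to 0.064 for Slc6a8, the difference in log2 Ckb over Ckm from -0.097 to 0.13, and that in the share of Ckb from -0.10 to 0.078 percentage points. Among all features 4 were called, against 12 with no filter but a mean above 0, 37 under equal totals, 0 without a trend, 12 with robust moderation, 29 by DESeq2, 33 in the authors' deposited table and 1 to 8 without 1 library, 1 being without knockout 499, control 498 or control 502 and 8 without control 490. The causes were not tested. Log2 Ckmt1 over Ckmt2 was not computed, since Ckmt1 had 0 reads in 1 library. No paired analysis was possible because the columns carry a library number that the labels do not tie to a replicate number. Depth limits Ckmt1, and depth and the spread among libraries limit Gatm and Gamt.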
